A study of Mus musculus with 6 samples.

Results

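The nuclear genes that encode the subunits of the mitochondrial respiratory chain and of ATP synthase were compared between 2 sorted fractions of mouse ovarian surface epithelium. The genes were all those with a probe set annotated to a single symbol beginning with Nduf, Uqcr, Atp5 or Cox4 to Cox8, together with Sdha, Sdhb, Sdhc and Sdhd. This rule, which used no difference between the fractions, took 90 genes on 179 probe sets, out of 18193 genes with a single-gene probe set. Each gene was represented by its probe set of highest mean over the 6 arrays. The genes fell into complex I (34 genes), complex II (4), complex III (8), complex IV (19), complex V (17) and 8 Ndufaf genes, whose products assemble complex I and are not subunits of it. Ndufa4 and Ndufa4l2 carry complex I names and were counted with complex IV, because the Ndufa4 protein is a subunit of cytochrome c oxidase. Ndufb4 and Cox7b2 were too dim to pass the filter on low values, which left 88 genes tested, of which 80 encode subunits. For 24 of the 90 the probe set was of the kind (x_at or s_at) that can also bind related transcripts.

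Ovarian surface epithelium is the single layer of cells that covers the ovary. Cells of virgin FVB/N females aged 8 weeks were cultured for 24 hours and stained with ALDEFLUOR, which makes cells with aldehyde dehydrogenase (ALDH) activity fluoresce, with no genetic alteration or other agent named for either fraction. A flow cytometer then separated ALDH-positive cells from ALDH-negative cells. Mice were pooled by 10, and both fractions of each of 3 separate pools were hybridised, which makes 6 Affymetrix arrays with n = 3 in either fraction. Replicates 1 to 3 stand for the pools.

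Respiratory complexes sit in the inner mitochondrial membrane. Complexes I and II pass electrons from NADH and succinate to ubiquinone, complex III hands them to cytochrome c, and complex IV transfers them to oxygen. Complexes I, III and IV pump protons, and complex V, the ATP synthase, uses the gradient to make ATP. Most subunits are encoded in the nucleus, a smaller set in mitochondrial DNA, and many nuclear promoters carry sites for nuclear respiratory factor 1 (NRF-1) and for ETS factors such as GABP.

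The ALDH-negative sample of replicate 2 stood apart from the others. Its correlation with the other arrays over all probe sets was 0.558 to 0.679, whereas the 5 other arrays correlated with each other at 0.850 to 0.974. The 3′ control probe set of Actb, the cytoskeletal actin, had a deposited log2 level of 5.03 there, while the 5 other arrays lay between 9.56 and 11.04. In replicate 3 the 3′ control probe set of Gapdh exceeded the 5′ one by 3.59 (ALDH-negative) and 5.30 (ALDH-positive), against 0.90 and 1.00 in replicate 1. The part of RNA quality or amplification in the results was not tested. Values are therefore given for each replicate, with and without replicate 2. The arrays measured pooled RNA, so fewer cells of a type and less RNA per cell cannot be told apart.

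All 11 surface epithelium markers measured were higher in ALDH-positive cells in all 3 replicates, where 11.3% of all genes were, with a median difference of 3.61. On none did the fractions overlap, where 3.55% of all genes had all 3 ALDH-positive samples above all 3 ALDH-negative ones. None of the markers passed the adjusted threshold (smallest adjusted p = 0.76, limma). Their summed level (log2 of the summed linear signal) was 8.10, 8.25 and 9.01 in ALDH-negative cells of replicates 1 to 3, against 11.61, 11.63 and 11.19 in ALDH-positive cells. The ALDH-negative fraction thus carried the markers of its label at lower levels. Of 11 listed markers of steroidogenic cells, which are rich in mitochondria, 8 were measured and none was under the filter level on every array. Single markers were under it on some arrays, down to 1.54 in ALDH-negative cells of replicate 2 and 2.01 in ALDH-positive cells of replicate 3. The summed level of the 8 was 12.81, 8.26 and 12.20 in ALDH-negative cells against 12.23, 12.29 and 11.74 in ALDH-positive cells. For 7 of 8 granulosa markers measured the sums were 10.80, 7.24 and 9.77 against 10.44, 9.87 and 9.81. The sums of stroma and smooth muscle markers were higher in ALDH-positive cells of each pool, at 6.77, 8.27 and 8.61 against 9.93, 9.85 and 10.12 for stroma. Their members were mixed: Col3a1 and Col1a1 of stroma and Acta2 and Tagln of smooth muscle were higher in all 3 replicates, but 3 of 5 tested stroma markers were lower in replicate 3 (median -0.36) and 3 of 5 smooth muscle markers in replicate 2 (median -2.24). Those of leukocyte and oocyte markers stayed at or under 6.14 on every array.

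Several promoters of the genes compared hold an NRF-1 motif, and 6 stretches are shown because these genes span 4 of the complexes and took very different values on the array that stood apart. The windows came from RefSeq (GRCm38.p6) and reach from 250 bases before to 50 bases after a start site, and 74 of the 90 genes had one. The motif searched was GCGCANGCG on both strands, where N is any base; it also matches where it overlaps its own reverse complement. A match was found in 20 of the 74 genes (27%) and in 7.03% of all 27025 genes with a window. It was present in 7 of 15 complex V genes, 6 of 31 of complex I, 2 of 3 of complex II, 2 of 5 of complex III and 1 of 13 of complex IV. The ETS motif CCGGAAG was found in 25.7% of the genes compared and 9.93% of all genes, and the YY1 motif AAGATGGCG in 9.46% and 1.64%. A match describes letters in the window and was not measured as binding. The sequences below run 5′ to 3′ in the direction of the gene, and capitals mark the NRF-1 motif.
Ndufa5, complex I, chr6:24527682-24527742, minus strand: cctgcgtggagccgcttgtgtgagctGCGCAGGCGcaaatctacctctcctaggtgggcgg
Sdha, complex II, chr13:74350304-74350364, minus strand: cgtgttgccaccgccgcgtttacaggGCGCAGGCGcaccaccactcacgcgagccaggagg
Sdhd, complex II, chr9:50603894-50603954, minus strand: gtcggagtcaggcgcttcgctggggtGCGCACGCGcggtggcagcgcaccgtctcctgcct
Cox6a1, complex IV, chr5:115349086-115349146, minus strand: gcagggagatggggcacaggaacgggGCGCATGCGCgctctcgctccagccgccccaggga
Atp5g2, complex V, chr15:102671055-102671115, minus strand: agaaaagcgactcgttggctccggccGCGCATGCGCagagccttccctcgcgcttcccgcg
Atp5k, complex V, chr5:108434415-108434475, minus strand: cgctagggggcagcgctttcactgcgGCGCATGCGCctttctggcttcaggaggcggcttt

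Among tested subunit genes with a window, the 17 with the NRF-1 motif had median differences (ALDH-positive minus ALDH-negative, log2) of -0.28, 2.45 and 0.27 in replicates 1 to 3. The 48 without it had -0.27, 1.88 and 0.13. Over replicates 1 and 3 together the medians were 0.023 with the motif and 0.015 without it. These values are a description, with no test.

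No respiratory chain gene differed between the fractions at an adjusted p under 0.05 in limma with the pool as a block. The same fit called 0 of 27022 probe sets over the whole array (0%), while 661 (2.45%) had an unadjusted p under 0.05. None of the 88 genes tested reached that unadjusted level, and the smallest p was 0.06, for Uqcr11. In no gene did all 3 ALDH-positive samples lie above, or all 3 below, the ALDH-negative samples, against 3.55% and 3.32% of all 12814 genes tested. The replicates instead gave different pictures: most subunits were slightly lower in ALDH-positive cells in replicate 1, much higher in replicate 2, and mixed in replicate 3.

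In replicate 1, 59 of 80 subunit genes were lower in ALDH-positive cells, where 49.4% of all genes were lower. Their median difference was -0.23 and the range -0.78 to 0.73, so none passed 2-fold. The median over all genes was 0.01. In replicate 2, 66 of 80 subunits were higher, where 47.3% of all genes were higher, with a median of 1.68 and a range of -3.88 to 8.14. In replicate 3, 32 of 80 were lower and 48 higher, where 48.5% of all genes were lower, with a median of 0.13 and a range of -1.24 to 2.06.

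Replicate 2 rests on the array that stood apart. Of the 80 subunit genes, 53 had their lowest value of all 6 arrays there and 12 their highest, while 33.2% of all genes had their lowest value there and 40.4% their highest. Bright genes in general moved the same way. The 1282 genes in the brightest 10% by level on replicates 1 and 3 had a median difference of 1.52 in replicate 2, against -0.18 over all genes, and 52 of the 80 subunit genes belong to that class. In replicates 1 and 3 these bright genes had medians of -0.02 and -0.02, and those 52 subunits -0.20 and 0.13. Without replicate 2 the median of all 80 subunits was 0.02, against 0.04 over all genes.

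Few subunits kept a direction in all replicates. Over replicates 1 and 3, 24 of 80 were lower in both, where 25.7% of all genes were, and 13 were higher in both, where 27.8% were. With replicate 2 added, 9 were higher in all 3 (Ndufa2, Ndufa12, Ndufb6, Sdha, Sdhd, Cox4i1, Atp5g1, Atp5md and Atp5o), where 11.3% of all genes were. For 4 of these, Ndufa12, Sdha, Sdhd and Atp5o, another tested probe set was lower in replicate 1. Ndufs4, Ndufv2 and Cox4i2 were lower in all 3, where 11.4% of all genes were, and other probe sets of Ndufs4 and Ndufv2 were higher in replicate 2. Another 35 were lower in replicate 1 and higher in replicate 3. Pool and fraction can be set side by side: within replicates 1 and 3 the median absolute difference between fractions was 0.29 and 0.31 over the 80 subunits, while between these pools it was 1.08 in ALDH-negative cells against 0.78 in ALDH-positive cells. Between the ALDH-positive samples of pools 1 and 2 it was 0.17. Over all genes the same measures were 0.32 and 0.50 within the pools, 0.79 and 0.67 between pools 1 and 3, and 0.27 between the ALDH-positive samples of pools 1 and 2. Pool 3 thus lay further from pool 1 than the fractions of either pool lay from each other, in the subunits and over all genes, whereas ALDH-positive cells of pools 1 and 2 were closer.

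**Figure D1:**
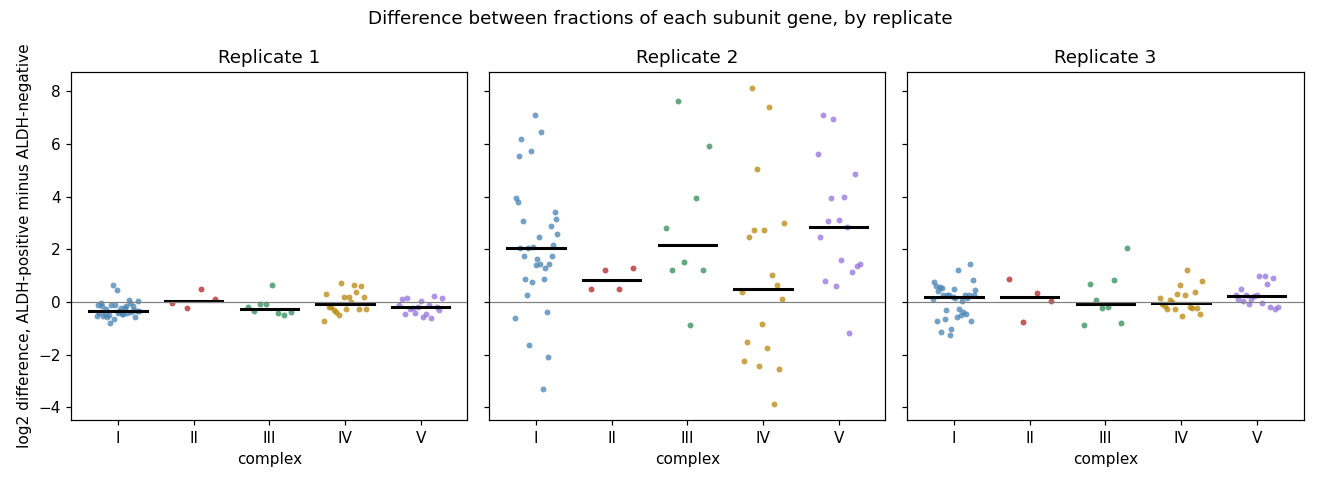
Each point is 1 subunit gene, placed by its complex (horizontal axis) and its log2 difference of ALDH-positive minus ALDH-negative cells (vertical axis), in 1 panel for each replicate; black bars are medians over the complex. The points lie within -0.78 to 0.73 in replicate 1 and spread from -3.88 to 8.14 in replicate 2.

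**Figure D2:**
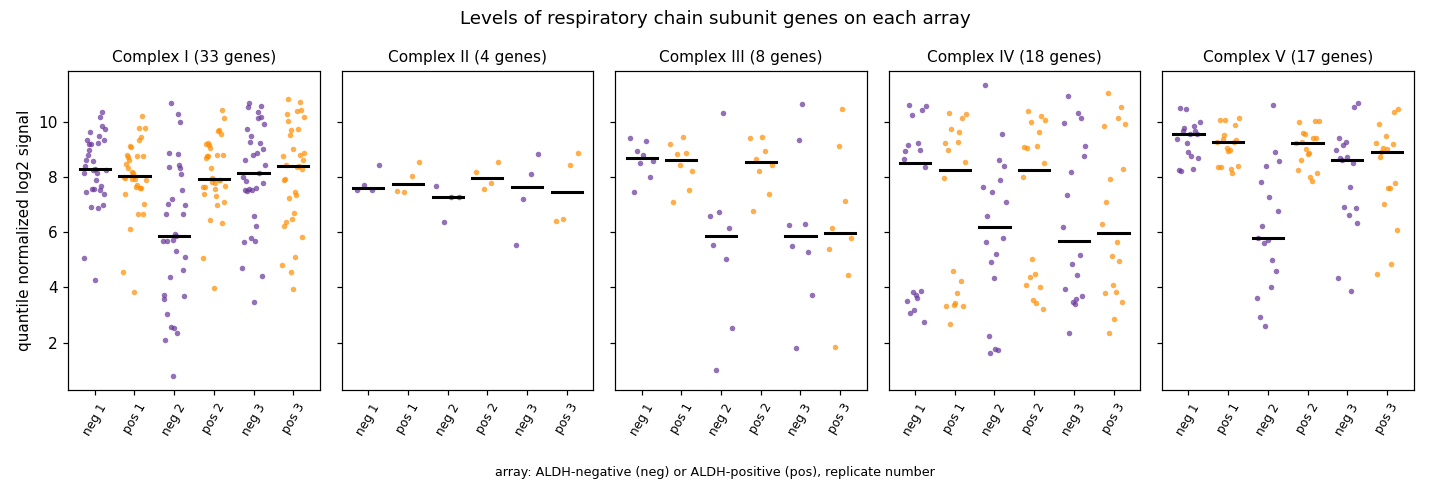
Quantile normalized log2 signal (vertical axis) of each tested subunit gene on each of the 6 arrays (horizontal axis), in 1 panel for each complex; points are genes and black bars medians, with ALDH-negative arrays purple and ALDH-positive arrays orange. The medians of complexes I, III and V on the ALDH-negative array of replicate 2 lie at 5.87, 5.85 and 5.78, and the medians of complexes III and IV are also lower in both fractions of replicate 3 (5.87 and 5.96 for III, 5.67 and 5.97 for IV) than of replicate 1 (8.69 and 8.62, 8.51 and 8.24).

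Complex I, the NADH dehydrogenase, had a median difference of 0.49 over 3 replicates, made of -0.33, 2.03 and 0.19, and of -0.06 without replicate 2. In replicate 1, 29 of its 33 tested genes were lower in ALDH-positive cells. The 9 genes of the Ndufs and Ndufv families, which include the core subunits that hold the flavin and the iron-sulfur clusters, had medians of -0.36, 0.86 and 0.12 in the 3 replicates. The accessory Ndufa genes, 12 of them, had -0.34, 2.79 and 0.16, and 10 accessory Ndufb genes had -0.30, 2.11 and 0.25. The subgroups shared the lower values of replicate 1.

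Ndufb6, an accessory subunit of the membrane arm, had the smallest p for a higher level in complex I. It measured 7.56, 2.57 and 9.46 in ALDH-negative cells against 8.19, 8.31 and 9.70 in ALDH-positive cells of replicates 1 to 3. ALDH-positive cells were higher in each pool, but the fractions overlapped, and replicate 2 supplied most of the difference of 2.20 ± 1.12 (SE, n = 3 pools; adjusted p = 0.89, limma). Without replicate 2 the difference was 0.44 ± 0.40 (n = 2 pools). Ndufa12, another accessory subunit, went the same way, at 7.56, 0.79 and 8.81 in ALDH-negative cells against 8.02, 7.91 and 9.00 in ALDH-positive cells. Each SE given is that of limma, which draws the variance of a probe set toward that of all probe sets.

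Ndufs4, an accessory subunit whose loss in mice causes a Leigh-like disease, had the smallest p for a lower level in complex I. Its chosen probe set read 6.86, 10.27 and 8.86 in ALDH-negative cells against 6.63, 6.96 and 8.37 in ALDH-positive cells, a difference of -1.34 ± 0.81 (SE, n = 3 pools; adjusted p = 0.89, limma). Its other tested probe set read 7.95, 5.54 and 7.20 against 7.64, 7.62 and 5.94. The probe sets disagreed in sign in replicate 2 and had the same sign in replicates 1 and 3.

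Ndufa7, Ndufb8 and Ndufb3 were the complex I genes lower by more than 2-fold in replicate 3 on their chosen probe sets. Ndufa7 measured 8.57 and 5.79 in ALDH-negative cells against 7.94 and 4.55 in ALDH-positive cells of replicates 1 and 3. Over these replicates its difference was -0.94 ± 0.42 (SE, n = 2 pools), the lowest among the genes tested, but replicate 2 gave 0.77. The other 4 tested probe sets of Ndufa7 were lower in replicate 1 too, but higher in replicate 3, by 0.16 to 1.25. Ndufb8 measured 8.79 and 7.49 against 8.33 and 6.35, and Ndufb3 differed by -0.11 and -1.04. In the other direction Ndufb2 and the core subunit Ndufs3 were higher in ALDH-positive cells of replicate 3, by 1.43 and 1.22. In replicate 1 they were lower, by 0.33 and 0.45 in size. Another tested probe set of Ndufb2 gave -0.51, 3.02 and 1.30 in replicates 1 to 3. A further one gave 0.43, -3.51 and -0.79, opposite in sign to the chosen one in each replicate. None of these genes had an unadjusted p under 0.05 in limma with equal weights. With array weights in limma, 6 of the 88 genes did, where 6629 of all 27022 probe sets did. Among the 6 were Ndufa7 (adjusted p = 0.081, limma), Ndufb2 (0.099), Ndufb8 (0.17) and Ndufs3 (0.18).

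Ndufb7, Ndufb11 and Ndufa5 differed by at most 0.40 between fractions of pools 1 and 3 on their chosen probe sets. Other tested probe sets reached -1.28 for Ndufb11, 0.71 for Ndufb7 and 0.44 for Ndufa5, all in replicate 3. Ndufb7, an accessory subunit on the intermembrane side, measured 10.34, 7.53 and 10.15 in ALDH-negative cells against 10.18, 10.42 and 10.41 in ALDH-positive cells. Ndufb11 measured 9.86, 8.10 and 10.56 against 9.45, 9.55 and 10.71, and Ndufa5 9.48, 8.81 and 10.35 against 9.33, 9.67 and 10.38. On the chosen probe sets the low ALDH-negative value of replicate 2 recurred in all 3 genes. The other tested probe sets of Ndufb11 differed by -0.10 (9.10 against 8.99) and 3.78 in that replicate.

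The 8 Ndufaf assembly factors had a median difference of 0.08 over 3 replicates, with -0.13, 0.25 and 0.04 in each. Ndufaf3 had the smallest p for a higher level, at 5.64, 2.14 and 2.28 in ALDH-negative cells against 5.10, 5.44 and 2.33 in ALDH-positive cells, a difference of 0.94 ± 0.89 (SE, n = 3 pools; adjusted p = 0.89, limma) that was -0.24 without replicate 2. Ndufaf6 had the smallest p for a lower one, at 4.36, 5.24 and 5.33 against 4.14, 3.86 and 5.42, a difference of -0.50 ± 0.67. Neither fraction stood apart from the other.

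Complex II, succinate dehydrogenase, which also belongs to the citric acid cycle, had all its 4 genes tested. The median difference was 0.44 over 3 replicates, with 0.04, 0.85 and 0.20 in each and 0.24 without replicate 2. Sdha, the flavoprotein, measured 8.42, 7.25 and 8.81 in ALDH-negative cells against 8.52, 8.54 and 8.86 in ALDH-positive cells, a difference of 0.48 ± 0.67 (SE, n = 3 pools; adjusted p = 0.90, limma). Sdhd, a membrane anchor, measured 7.52, 7.27 and 8.09 against 8.02, 7.77 and 8.44. Its differences of 0.51, 0.50 and 0.35 were close to each other, and the fractions nevertheless overlapped because pool 3 was higher in both. The other tested probe set of Sdhd gave -0.07, 2.83 and -0.18, and that of Sdha -0.21, 0.40 and -0.62.

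The other 2 genes of the complex had mixed signs. Sdhb, the iron-sulfur subunit, differed by -0.24, 1.20 and -0.75, from 7.69, 6.36 and 7.20 in ALDH-negative to 7.46, 7.55 and 6.45 in ALDH-positive cells. Sdhc, the second anchor, measured 7.51, 7.67 and 5.54 against 7.48, 8.16 and 6.40 on its chosen probe set. The other tested probe set of Sdhc gave differences of -0.30, 4.63 and -0.86.

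Complex III, the cytochrome bc1 complex, had a median difference of 0.54 over 3 replicates, with -0.28, 2.16 and -0.07 in each and 0.07 without replicate 2. In replicate 1, 7 of its 8 genes were lower in ALDH-positive cells. Uqcr11, a small accessory subunit, had the smallest p of all the genes tested. It measured 8.58, 2.53 and 3.72 in ALDH-negative cells against 8.20, 8.44 and 5.78 in ALDH-positive cells, a difference of 2.53 ± 1.14 (SE, n = 3 pools; adjusted p = 0.89, limma). ALDH-positive cells were lower in replicate 1 and higher in replicates 2 and 3. With array weights, which give an array that fits less well less weight, Uqcr11 was the 1 respiratory chain gene called, at 1.66 ± 0.47 (adjusted p = 0.029, limma). Its adjusted p was 0.32 to 1.00 under the other settings tried. With array weights 5.47% of all probe sets were called higher and 5.46% lower. Without replicate 2 the difference of Uqcr11 was 0.84 ± 0.65 (n = 2 pools), the mean of -0.38 in replicate 1 and 2.06 in replicate 3.

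Among the core subunits, Uqcrc1 measured 8.00, 6.15 and 5.27 in ALDH-negative cells against 7.52, 7.36 and 4.46 in ALDH-positive cells, and Uqcrc2 8.51, 6.71 and 9.34 against 8.42, 8.21 and 9.10. On these probe sets both were lower in ALDH-positive cells of replicates 1 and 3 and higher in replicate 2. Uqcrh, the hinge subunit next to cytochrome c1, measured 9.40, 6.58 and 6.26 against 9.19, 9.40 and 5.40. The other tested probe sets had the opposite sign in replicate 3. They gave -0.25, 2.95 and 0.52 for Uqcrc2 and -0.10, 4.04 and 0.93 for Uqcrh.

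Uqcrq, a ubiquinone-binding subunit, read 8.93, 1.02 and 1.79 in ALDH-negative cells against 8.83, 8.66 and 1.85 in ALDH-positive cells. On this probe set the gene was bright in both fractions of pool 1 and dim in both fractions of pool 3. In pool 2 it was dim in ALDH-negative cells only. Another tested probe set of Uqcrq read 3.20, 5.43 and 5.55 against 3.32, 3.69 and 2.99. A further one read 2.48, 4.46 and 2.64 against 2.78, 2.39 and 5.22. Both were lower in ALDH-positive cells of replicate 2. Uqcrb had the smallest p for a lower level, at 8.80, 10.31 and 10.64 against 9.44, 9.42 and 10.44, a difference of -0.15 ± 0.67 (SE, n = 3 pools; adjusted p = 0.96, limma). Its other probe set gave 4.47 in replicate 2, where the chosen one gave -0.89.

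Complex IV, cytochrome c oxidase, had the lowest median difference of the complexes, 0.13 over 3 replicates, with -0.09, 0.50 and -0.05 in each and 0.06 without replicate 2. Its genes include pairs in which 1 isoform is widely expressed and the other is found in muscle, lung, testis or other places. The replicate 2 median of complex IV lies between genes of opposite sign. Of its 18 tested genes 11 were higher there and 7 lower, over a range of -3.88 to 8.14. The 7 lower were Cox4i2, Cox5a, Cox6a2, Cox6b2, Cox8b, Cox8c and Ndufa4l2. Cox4i1, the common form of subunit 4, measured 9.24, 1.73 and 4.45 in ALDH-negative cells against 9.24, 9.11 and 5.64 in ALDH-positive cells, a difference of 2.86 ± 1.34 (SE, n = 3 pools; adjusted p = 0.89, limma). Its values in replicate 1 were equal within 0.01, and it was higher in ALDH-positive cells of the other replicates. Cox4i2, the form best known from lung, measured 3.49, 5.63 and 3.94 against 3.31, 4.09 and 3.78, lower in ALDH-positive cells of each pool.

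Several isoforms known from muscle or testis were brighter on the array that stood apart than on the 5 others. Cox6a2, the muscle form of subunit 6a, measured 3.86, 7.87 and 5.17 in ALDH-negative cells against 4.22, 3.99 and 4.95 in ALDH-positive cells, a difference of -1.25 ± 0.93 (SE, n = 3 pools; adjusted p = 0.89, limma) that was 0.07 without replicate 2. Cox8b, the muscle form of subunit 8, measured 2.74, 5.79 and 3.69 against 3.33, 3.23 and 3.47. Cox6b2, the testis form of subunit 6b, measured 3.84, 7.46 and 4.83 against 4.57, 5.01 and 5.13. In all 3 genes the highest of the 6 values was that of ALDH-negative cells in replicate 2, where 40.4% of all genes were highest. The muscle form Cox7a1 was instead lowest there, at 1.77.

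Ndufa4l2, a relative of Ndufa4 induced in low oxygen, measured 3.61, 5.21 and 3.57 in ALDH-negative cells against 3.79, 3.44 and 3.82 in ALDH-positive cells. Ndufa4 itself measured 9.16, 6.58 and 7.35 against 8.96, 9.04 and 7.09. Their differences in replicate 2 were -1.77 and 2.46, of opposite sign, and in replicates 1 and 3 neither exceeded 0.26 in size.

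The widely expressed isoforms Cox6a1, Cox7a2 and Cox8a were higher in ALDH-positive cells of replicate 2. Cox6a1 had the largest difference of any subunit there, 8.14, on its chosen probe set. That probe set read 10.60, 2.23 and 10.92 in ALDH-negative cells against 10.29, 10.37 and 11.01 in ALDH-positive cells. On it 5 arrays lay within 10.29 to 11.01. The other tested probe set of Cox6a1 read 9.31, 7.17 and 5.46 against 8.72, 9.12 and 5.82. Its difference in replicate 2 was 1.95, and it was low in both fractions of pool 3. Cox8a measured 8.65, 7.62 and 6.17 against 7.94, 7.98 and 6.31, and Cox7a2 10.56, 7.08 and 9.13 against 10.29, 10.07 and 9.91. Cox7a1, the muscle form of subunit 7a, went with them, at 3.73, 1.77 and 3.39 against 3.45, 4.49 and 2.84. Cox7a2l, which joins complexes III and IV into a supercomplex, had differences of 0.18, 0.11 and -0.47.

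Cox5b and Cox6c differed by at most 0.65 between fractions of replicates 1 and 3 on their chosen probe sets. In replicate 3 other probe sets gave 1.03 for Cox6c and -0.74 for Cox5b. Cox5b measured 10.40, 9.55 and 10.13 in ALDH-negative cells against 10.14, 10.19 and 10.52 in ALDH-positive cells. Cox6c measured 8.99, 8.62 and 10.32 against 9.63, 9.64 and 10.12. Cox5a measured 8.95, 11.31 and 9.94 against 9.24, 9.07 and 9.84 on the chosen probe set.

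Complex V had the highest median difference, 1.02 over 3 replicates, with -0.21, 2.86 and 0.21 in each, and 0.02 without replicate 2. In replicate 1, 12 of its 17 genes were lower in ALDH-positive cells, and in replicate 2, 16 were higher. The 5 genes of the catalytic F1 part (Atp5a1, Atp5b, Atp5c1, Atp5d and Atp5e) had medians of -0.21, 3.06 and 0.21, and the 3 genes of the membrane c-ring -0.12, 2.86 and 0.51. The 9 genes of the stalk and other membrane subunits had -0.24, 1.60 and 0.03.

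In the F1 part, Atp5a1, the alpha subunit, measured 9.97, 8.57 and 10.65 in ALDH-negative cells against 10.12, 10.00 and 10.47 in ALDH-positive cells. Atp5e, the epsilon subunit, had the smallest p for a higher level in complex V, at 9.54, 4.57 and 6.89 against 9.33, 9.41 and 7.78. Its difference was 1.84 ± 1.02 (SE, n = 3 pools; adjusted p = 0.89, limma), and 0.34 ± 0.46 without replicate 2 (n = 2 pools). Both genes were lowest on the array that stood apart.

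The 3 c-ring genes encode the same mature protein with different targeting peptides. Atp5g1 measured 8.25, 5.78 and 4.35 in ALDH-negative cells against 8.35, 8.23 and 4.47 in ALDH-positive cells, and Atp5g2 measured 8.27, 4.97 and 3.86 against 8.15, 7.83 and 4.83. Atp5g3 measured 10.50, 2.92 and 9.39 against 10.04, 10.00 and 9.89. Atp5g1 and Atp5g2 were low in both fractions of pool 3, whereas Atp5g3 was not, and all 3 were lower in ALDH-negative than in ALDH-positive cells of replicate 2.

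Among the stalk and membrane subunits, Atp5pb, of the peripheral stalk, measured 8.76, 4.02 and 7.64 in ALDH-negative cells against 8.29, 7.99 and 7.59 in ALDH-positive cells. Atp5h, also of the stalk, measured 9.65, 8.88 and 10.51 against 9.86, 10.01 and 10.33. Atp5l, of the membrane part, measured 8.69, 6.76 and 6.34 against 8.39, 8.13 and 6.07. Atp5k, the e subunit that takes part in dimer formation, had the smallest p for a lower level, at 9.84, 10.58 and 8.51 against 9.25, 9.40 and 9.19, a difference of -0.37 ± 0.69 (SE, n = 3 pools; adjusted p = 0.91, limma).

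**Figure D3:**
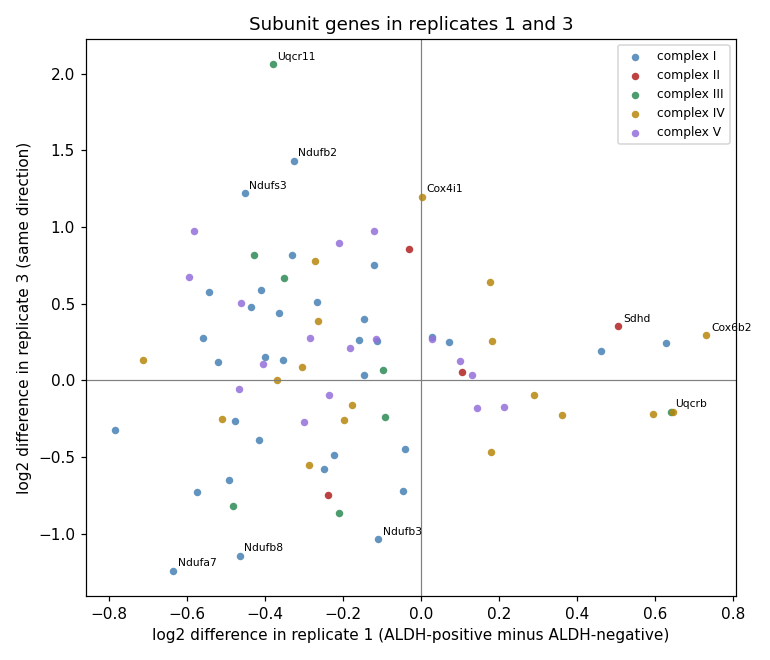
Each point is 1 subunit gene, coloured by complex, with its log2 difference of ALDH-positive minus ALDH-negative cells in replicate 1 (horizontal axis) and in replicate 3 (vertical axis). The points fill all 4 quadrants, with 24 genes lower in both replicates and 13 higher in both, and Uqcr11 stands highest at 2.06 in replicate 3.

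Probe sets of 1 gene could differ in sign in every replicate. Of 45 genes with at least 2 tested probe sets, all of a gene's probe sets had the same sign in 27 genes in replicate 1, 30 in replicate 2 and 21 in replicate 3. Cox5a, Ndufv2 and Atp5k had probe sets of both kinds. The chosen Cox5a probe set gave -2.24 in replicate 2, and another gave 3.23 from 6.43 in ALDH-negative to 9.66 in ALDH-positive cells. Ndufv2, a core subunit, gave -2.09 and 3.22, and Atp5k -1.19 and 4.06. For these genes the highest mean over 6 arrays fell on a probe set that was bright on this array, and the sign for these genes in replicate 2 depended on the probe set.

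**Figure D4:**
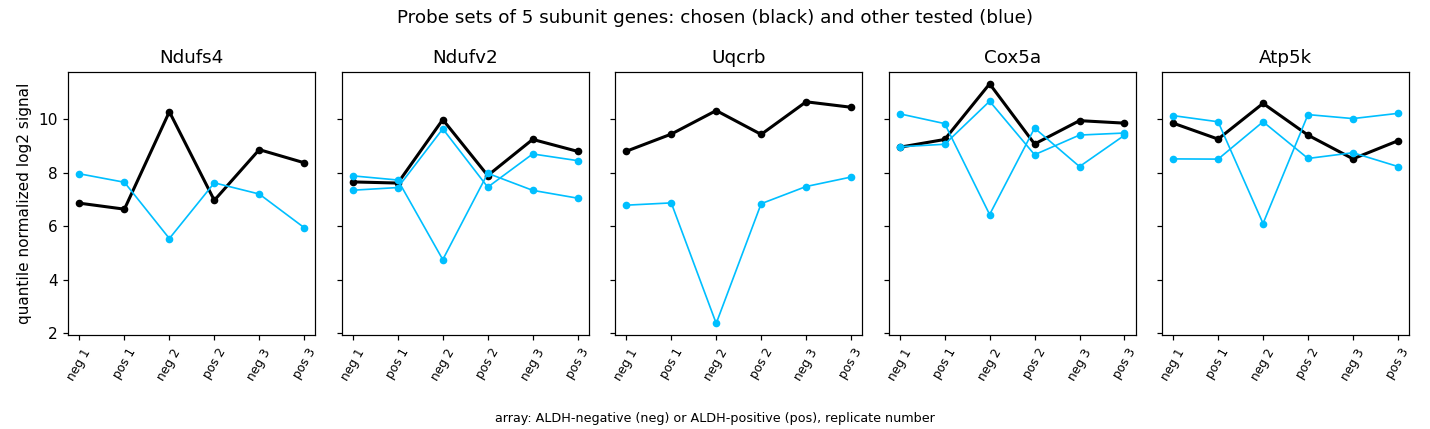
Quantile normalized log2 signal (vertical axis) on the 6 arrays (horizontal axis) of each tested probe set of Ndufs4, Ndufv2, Uqcrb, Cox5a and Atp5k; the black line is the probe set that stands for the gene and blue lines are the others. On the ALDH-negative array of replicate 2 the lines part, for Cox5a from 11.31 down to 6.43.

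Levels also differed between pools, most in complex III. From pool 1 to pool 3 the median change of its 8 genes was -2.86 in ALDH-negative and -2.09 in ALDH-positive samples. It was -1.12 and -0.47 in complex V, -0.05 and 0.40 in complex I, and 0.11 and 0.09 in complex IV, against 0.23 and 0.18 over all genes. The median level of complex IV was lower in pool 3, while the median change of its genes was near 0. Among them Cox4i1 and Ndufa4 were lower in pool 3, and Cox5a was higher on its chosen probe set and on another. The remaining Cox5a probe set was lower in pool 3. It went from 10.19 to 8.22 in ALDH-negative and from 9.83 to 9.39 in ALDH-positive cells. Across the 80 subunit genes, the levels of the fractions correlated at 0.985 in pool 1 and 0.967 in pool 3, those of ALDH-negative cells of pools 1 and 3 at 0.663, and those of ALDH-positive cells of pools 1 and 2 at 0.984. Over all genes these values were 0.943, 0.874, 0.778 and 0.966. These are descriptions across genes, which share the array and are not independent. The Gapdh 3′ and 5′ values given above differed between these pools in the same samples, and their part was not tested.

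The precision limits what can be read from 2 or 3 pools. Without replicate 2, the half-width of the 95% interval of a difference was 0.99 to 1.64 (median 1.02) over the 88 genes, and all 88 differences lay within 1 log2 unit of 0. These limma intervals rest on a variance drawn toward that of all probe sets, and not on the 2 pools alone. The half-width was under 1, the size of a 2-fold difference, in 21 genes, and the intervals reached from -1.98 to 2.48. The smallest unadjusted p without replicate 2 was 0.07.

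Other genes of mitochondrial energy metabolism were taken from fixed lists, and no gene in them passed the adjusted threshold. The 35 tested assembly factors outside the rule had medians of -0.33, 1.28 and -0.04 in replicates 1 to 3, and 29 of them were lower in replicate 1. The 76 mitochondrial ribosomal proteins had -0.18, 1.16 and 0.01. The 16 genes of pyruvate oxidation and the citric acid cycle had -0.29, 1.06 and 0.10, and the 19 electron carriers, exchangers and uncoupling proteins -0.20, 0.73 and -0.15. The median of replicate 1 was below 0 in each of these lists, as in the subunits.

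Dld, the dihydrolipoamide dehydrogenase shared by several mitochondrial enzymes, measured 6.77, 1.08 and 3.47 in ALDH-negative cells against 6.48, 6.13 and 5.76 in ALDH-positive cells. Vdac2, an outer membrane channel, measured 9.59, 3.40 and 7.43 against 9.38, 9.29 and 8.65. The 13 regulators of mitochondrial biogenesis had medians of -0.03, -0.19 and 0.00. Among them Ppargc1a, a coactivator of these genes, measured 2.12, 2.39 and 2.64 against 2.93, 2.85 and 4.14, higher in ALDH-positive cells of each pool and without overlap, though dim on most arrays and with an unadjusted p of 0.20 in limma. ND5, a complex I subunit encoded in mitochondrial DNA, measured 8.74, 11.12 and 10.32 against 9.80, 10.00 and 10.30. The 13 tested genes of glycolysis, which takes place in the cytosol, had -0.41, 1.15 and 0.22.

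Markers of steroidogenic cells were on the same side as most subunits in replicates 1 and 2 and on the other side in replicate 3. All 7 tested were lower in ALDH-positive cells of replicate 1, with a median of -0.72, all 7 higher in replicate 2, with 3.52, and 5 lower in replicate 3, with -0.44. Cyp11a1, the mitochondrial side-chain cleavage enzyme of steroid synthesis, measured 11.43, 4.09 and 8.42 in ALDH-negative cells against 10.69, 10.68 and 7.28 in ALDH-positive cells. Fdx1, which supplies electrons to it, measured 11.15, 5.87 and 11.00 against 10.69, 10.63 and 10.68. Their part in the differences of the respiratory chain was not tested.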

How the data were processed

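Expression was measured on 6 arrays, and the deposited table holds 45101 probe sets, whose values were taken as log2 signal from their range. How the authors summarised and normalized the deposited log2 values is not given in the sources used here. Amplification of cDNA from little RNA, per the labels' protocols, can lose 5′ signal unevenly. After removal of 64 control probe sets the arrays were quantile normalized. The lower 40% of probe sets by mean (log2 level under 2.73) were removed, which left 27022. The test was limma (version 3.58.1, under R 4.3.3) with lmFit, eBayes and the pool as a blocking term. P-values were adjusted by Benjamini-Hochberg across all tested probe sets at 0.05. In this fit they set a difference against the spread, from pool to pool, of the differences within pools. The eBayes step draws the variance of each probe set toward that of all probe sets, so the SEs and intervals are not those of the pools alone. The pairing comes from the series design. As a check, each array was set against its group mean, and the deviations correlated within pools at 0.38, -0.19 and 0.35. The fit was also run on simulated data with noise of the same size on all 6 arrays. That run cannot show how the fit behaves with an array that stands apart.

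Gene names came from the platform annotation in GEO, updated by gene identifier. The genes and lists were chosen with earlier results of these data known. Values per array are given for the genes of highest mean, of smallest p in each direction and of largest concordant difference in each complex, and for fixed isoform groups; other genes were named after their values were seen. Alternatives covered the normalization, the filter, each replicate, the block, array weights and the choice of probe set. Medians over a complex have no test.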

Additional observations from a re-analysis of the deposited data

How the results depend on the processing

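The number of respiratory chain genes called was 0 in every setting run except array weights, which called 1. Over all probe sets array weights called 2953, and leaving out 1 replicate gave 0 to 7. With no replicate block, which ignores the pairing, 0 were called and the complex medians were the same, 0.49 for complex I and 1.02 for complex V. Scaling moved the median difference of all probe sets from -0.04 to 0.06 on the values as deposited and 0.22 on arrays centred on their medians. All complex medians rose with it: to 0.95 and 1.12 for complex I, 1.05 and 1.22 for II, 1.00 and 1.17 for III, 0.59 and 0.76 for IV, 1.36 and 1.52 for V, and 0.28 and 0.45 for the assembly factors; the cause was not tested. Leaving out 1 replicate gave -0.06 to 0.95 for complex I, 0.02 to 1.67 for complex V and -0.06 to 0.18 for the assembly factors, with the lowest values without replicate 2. Array weights gave -0.02 for complex IV. Without replicate 2, 42 of 88 genes changed sign.

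Among single genes, Uqcrb reversed to 0.25 as deposited, 0.41 on centred arrays, 0.047 without the ALDH-negative array of replicate 2 and with no block, 0.20 with replicates 1 and 3 normalized alone (chosen after seeing the data) and 0.74 as a mean over probe sets. Atp5k reversed to 0.029, 0.20, 0.10, 0.053 and 0.11 in these settings, to 0.37 with array weights and to 1.34 on the probe set of highest mean in replicates 1 and 3. With replicates 1 and 3 normalized alone Cox6a2 reversed to 0.071 and Ndufaf3 to -0.27. Leaving out 1 replicate gave -0.55 to 0.22 for Uqcrb, -2.05 to 0.066 for Cox6a2, -0.89 to 0.039 for Atp5k and -0.24 to 1.68 for Ndufaf3, all reversed without replicate 2. The number of arrays limits the precision.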
